A study of Vitis vinifera with 2 samples.

Results

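Among the 299 predicted miRNA entries deposited for grapevine plantlets, 59 were 21 nt long, started with A, C or G and were read from at most 1 precursor in each library. They were chosen by length, first base and number of precursors alone, and 4 further entries that met these limits (novel_mir_89, novel_mir_113, novel_mir_154 and novel_mir_238) were left out by name. Those 4 entries are abundant, with 39862 reads in the non-cold-treated (NCT) and 40064 reads in the cold-treated (CT) library, or 42.9% and 41.1% of all reads in the table. Another 15 entries of this length without a 5′ U were left out because they had several precursors. First base, length and precursor number are therefore no findings here, and the levels of the set depend on which names were left out.

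Both libraries were made from micropropagated 'Muscat Hamburg' (Vitis vinifera) plantlets that were 6 weeks old, with 3 plantlets pooled per library. The NCT plantlets stayed at 26°C and were sampled at 0 h, and the CT plantlets were sampled after 4 h at 4°C. The temperature of the NCT plantlets is that of the labels, and the article is not uniform about it. The labels give the tissue as leaf, and the methods describe shoot apices with 1 developed leaf. This could not be checked, since the table holds no marker of a tissue.

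Each condition has 1 library, so differences carry no replicate check, and every test on reads compares these libraries and not the conditions. The libraries held 21355400 (NCT) and 25915815 (CT) clean reads, so that 1 read equals 0.0468 and 0.0386 TPM, the reads of an entry scaled to a common total of clean reads. The table covers 0.435% and 0.376% of the clean reads. The lowest listed count was 5 in each library. An entry that was not listed in a library may thus still have had up to 4 reads there. It may have had more if its hairpin was not predicted or was listed under an overlapping sequence. Among all 103 entries listed in both libraries, the median log2 (CT/NCT) was -0.41 with this scaling, so that values near -0.41 follow the bulk of the table.

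Plant miRNAs are cut from hairpin precursors by a Dicer-like enzyme as a duplex of a 5p and a 3p strand, and 1 strand is loaded into an Argonaute protein that guides cleavage or repression of complementary mRNAs. In Arabidopsis, the first base takes part in this sorting, since AGO1 favours a 5′ U, AGO2 and AGO4 favour a 5′ A, and AGO5 favours a 5′ C. Most plant miRNAs of 21 nt start with U, which makes the entries with other first bases a less usual set. Argonaute loading was not measured in these libraries.

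The 59 members comprised 25 sequences starting with A, 31 starting with C and 3 starting with G. The table held 116 entries of the same length and precursor number starting with U, with the same names left out. The most abundant members of each first base are shown here as deposited, with T for U, 5′ to 3′, and with bases 2 to 8 (the seed) in capitals.
novel_mir_276: aAGCAATCaggagacttgtag
novel_mir_94: aAATGGAGtagattgtgggag
novel_mir_160: aTACTGGAagggatgctgtct
novel_mir_182: cCGAGGGAgagagcgagagga
novel_mir_57: cTAGAGATtgtggattaggct
novel_mir_201: cTGTATTTggtggagtggatg
novel_mir_106: gTTGGAAGtcggtgggggaac
novel_mir_110: gTTGGAAGtcggtgggggacc
novel_mir_118: gTTATCGAggtggcattagtg

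The 59 members had 58 different seeds, and novel_mir_106 and novel_mir_110 were the only members that shared one with each other. Together, 6 members shared a seed with another entry of the table, and 2 shared one with a known grapevine miRNA among 162 compared. These were novel_mir_294 with vvi-miR3632* and novel_mir_103 with vvi-miR3631a*, the latter named after its values were seen. After the first base, 36.3% of the bases of the members were G and 11.3% were C, against 33.0% and 15.2% in the U-starting entries. These values were 32.8% and 13.8% for A-starting, 38.2% and 9.19% for C-starting and 45.0% and 11.7% for G-starting members. The median GC content was 42.9% for the A-starting, 47.6% for the C-starting and 47.6% for the U-starting sequences.

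The C-starting members held most of the reads, and these came from 2 miRNAs. The summed level was 234 TPM (NCT) and 188 TPM (CT) for first base C, against 22.0 and 30.1 TPM for A and 8.10 and 3.16 TPM for G. C-starting members thus had 88.6% of the members' reads in NCT and 84.9% in CT. The split by first base depends on the names left out. In NCT and CT, novel_mir_113 (C) had 1185 and 899 TPM and novel_mir_154 (A) had 665 and 443 TPM. Novel_mir_238 (A) had 0 and 151 TPM, and novel_mir_89 (G) had 16.0 and 52.4 TPM. Shares by first base with these entries put back were not computed. Without novel_mir_182 and novel_mir_57, the 29 other C-starting members summed to 25.4 TPM in NCT and 19.1 TPM in CT. The former is above and the latter below the sum of the A-starting members. In CT, 13.2 of the 30.1 TPM of the A-starting members came from novel_mir_276, which was not listed in NCT. It overlaps in sequence with novel_mir_174, a U-starting entry with 343 reads in NCT. The higher A-starting sum in CT than in NCT, and its place above 19.1 TPM, depend on novel_mir_276. All 59 members together took 6.07% of the table's reads in NCT and 5.87% in CT. Listed counts had a median of 13 reads in NCT and 13.5 reads in CT.

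**Figure D1:**
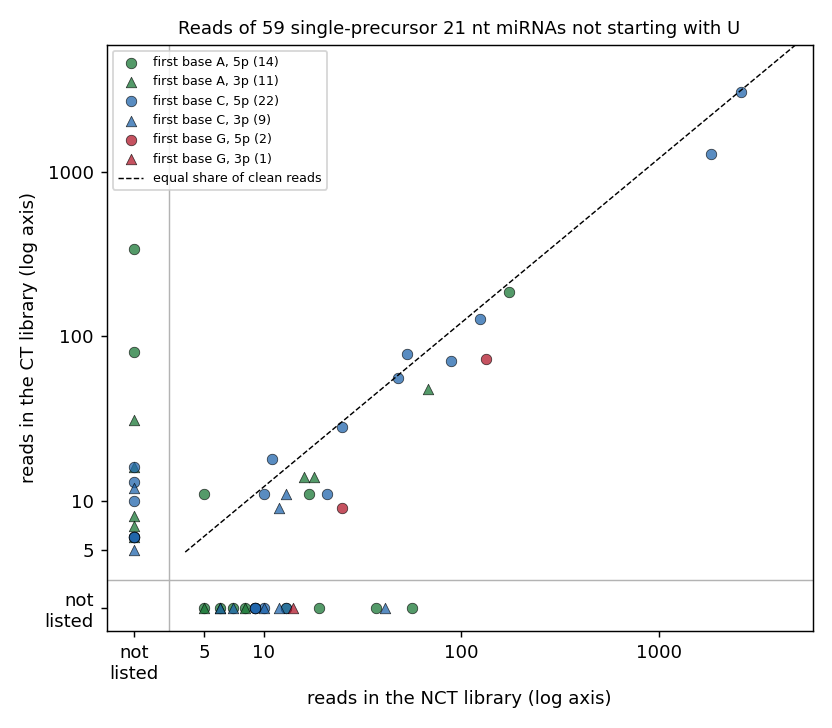
Reads of each of the 59 members in the NCT (x axis) and CT (y axis) library, both log axes, coloured by first base and shaped by precursor arm, with counts of 0 drawn at "not listed". The highest points, novel_mir_182 (2611 and 3074 reads) and novel_mir_57 (1844 and 1294 reads), both start with C, and most points lie on the margins where 1 library did not list the entry.

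Novel_mir_182 was the most abundant member, and its TPM was nearly the same in both libraries when scaled by clean reads. It had 2611 reads in NCT, or 122 TPM (95% Wilson interval 118 to 127), and 3074 reads in CT, or 119 TPM (114 to 123). Its log2 (CT/NCT) was -0.04, with an exact 95% interval for counting error of -0.12 to 0.03, which lies above the median of -0.41. Scaled by the median of ratios, which sets the median of the table at 0, its sign turned and the log2 was 0.37. The mature sequence lies on chromosome 8 from 14594050 to 14594070 on the antisense strand (PN40024 genome, 12X), between genes. It is rich in purines, and its precursor of 202 nt folded at -94.5 kcal/mol.

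The closest member in sequence to novel_mir_182 was novel_mir_210, which was named after its values were seen.
novel_mir_182: cCGAGGGAgagagcgagagga
novel_mir_210: cAGAGGGAgagagagagatga
Counted from the 5′ end of novel_mir_182, they differ by C2A, C14A and G19T. Novel_mir_210 had 25 (NCT) and 28 (CT) reads, with an interval that includes 0 (log2 -0.12, exact interval -0.95 to 0.72, and 0.29 with the median of ratios). Both were read from the 5p arm.

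Novel_mir_57, the next most abundant, was lower in the CT library, by a size that depends on the scaling. It fell from 1844 reads, or 86.3 TPM (82.5 to 90.4), to 1294 reads, or 49.9 TPM (47.3 to 52.7). The log2 (CT/NCT) was -0.79 (exact interval -0.89 to -0.69, Fisher's exact test, p = 1.7e-52), short of the limit of 1 in size, and -0.38 with the median of ratios. It lies between genes on chromosome 14 (10959021 to 10959041, sense strand). Its precursor of 176 nt folded at only -18.4 kcal/mol, against -94.5 kcal/mol for that of novel_mir_182.

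Of the 3 G-starting members, novel_mir_106 and novel_mir_110 were listed in both libraries and were both lower in CT. Their sequences, shown above, are identical except for A20C, counted from the 5′ end of novel_mir_106. Novel_mir_106 had 134 reads in NCT and 73 in CT, or 6.27 and 2.82 TPM, with a log2 (CT/NCT) of -1.16 (exact interval -1.59 to -0.73, Fisher's exact test, p = 1.7e-08). Novel_mir_110 had 25 reads in NCT and 9 in CT, or 1.17 and 0.347 TPM, with a log2 of -1.75 (exact interval -3.04 to -0.61, Fisher's exact test, p = 0.00093). With the median of ratios they remained below 0, at -0.75 and -1.34.

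Novel_mir_106 lies between genes on chromosome 19 (18678410 to 18678430, sense strand). The precursor numbers of the pair differ in both libraries (149 and 154 in NCT, 120 and 123 in CT), so they were listed at different hairpins. The third G-starting member, novel_mir_118, was listed in NCT only with 14 reads on the 3p arm, and it was at least 4.25-fold lower in CT against a floor of 4 reads per library. This floor, the highest count below the lowest listed one, stands in for every count of 0 in a fold. The bound fails where a hairpin went unpredicted and more reads were left out, or where reads were listed under an overlapping sequence.

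A second pair of similar members, novel_mir_189 and novel_mir_190, starts with C. Novel_mir_190 is shifted by 1 nt, and the overlap of 20 nt differs by G18A, counted from the 5′ end of novel_mir_189.
novel_mir_189: cTTGGCTGttggagagggtac
novel_mir_190: cCTTGGCTgttggagaggata
Novel_mir_189 had 89 (NCT) and 71 (CT) reads, with a log2 of -0.61 (exact interval -1.08 to -0.14). Novel_mir_190 had 21 and 11 reads, with a log2 of -1.21 (exact interval -2.41 to -0.095). Both intervals include the median of the table. Their precursors carry consecutive numbers (267 and 268 in NCT, 201 and 202 in CT). Novel_mir_189 lies within a coding sequence on chromosome 9 (917515 to 917535, sense strand), and the number order places novel_mir_190 on the same chromosome.

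The question of the study was which miRNAs respond to cold, and by its limits a miRNA is called when log2 (CT/NCT) exceeds 1 in size, p is at or under 0.001 and the level exceeds 10 TPM in 1 of the libraries. Only 3 members passed 10 TPM, namely novel_mir_182, novel_mir_57 and novel_mir_276. By all limits, 1 of the 59 members was higher in CT and 0 were lower, against 1.67% higher, 2.34% lower and 4.01% in either direction among all 299 entries. With the 4 left-out entries put back, 3 were higher. Of the entries over 10 TPM, 42.9% were called in either direction and 17.9% were higher, so that 1 of 3 is no result about the members.

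The called member was novel_mir_276, which starts with A and was listed in CT only. It had 342 reads there, or 13.2 TPM (11.9 to 14.7), and was at least 70.5-fold higher in CT against the floor (Fisher's exact test, p = 7.9e-90). It lies in a 5′ UTR on chromosome 7 (17201656 to 17201676, sense strand). Its sequence overlaps by 18 nt, without mismatch, with novel_mir_174, a U-starting entry with several precursors.
novel_mir_276: aAGCAATCaggagacttgtag
novel_mir_174: tGGAAGCAatcaggagacttg
Novel_mir_174 had 343 reads in NCT and 130 in CT. In NCT these 343 reads were listed at precursor 244, and 196 reads at precursor 249. By coordinates, the precursor of novel_mir_276 (17201646 to 17201881) lies inside that of novel_mir_174 (17201643 to 17201884). The call was lost when both sequences were summed, with 343 reads in NCT and 472 in CT (log2 0.18, exact interval -0.02 to 0.39). Precursor 244 comes before 249 in NCT, as that of novel_mir_276 (178) comes before that of novel_mir_174 (184) in CT. With the reads at the earlier number set side by side, 343 in NCT and 342 in CT, the log2 was -0.28 (exact interval -0.50 to -0.06). By number, 244 (NCT) and 178 (CT) both fall between the U-starting entries novel_mir_172 (242 and 177) and novel_mir_175 (245 and 179). The precursors of these neighbours start at 6411485 and 19450174 on the sense strand of chromosome 7, on either side of 17201646. That 244 and 178 mark the same hairpin was inferred from this order and was not tested.

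The predicted target sites of novel_mir_276 were examined for their pairing only. Of 8 ungapped sites in the supplementary list of the study, 3 paired with bases 1 to 20 of novel_mir_276 by Watson-Crick pairs alone, and all 3 had the same sequence.
site in GSVIVT01022165001: uacaagucuccugauugcuu
site in GSVIVT01000622001: cuacaggucuccugauuguuu
The 3 transcripts (GSVIVT01022165001, GSVIVT01022168001 and GSVIVT01022169001) are annotated as multicopper oxidases, a class that includes the laccases, which oxidise phenolic compounds such as lignin precursors in plant cell walls. The site in GSVIVT01000622001, annotated with 1,3-beta-D-glucan synthase activity, had 19 Watson-Crick and 2 G-U pairs over 21 nt. These are matches of letters, and cleavage was not analysed here. For this miRNA, named novel_mir_44 in the article, the authors reported a cleavage site in GSVIVT01022169001 from 5′ RLM-RACE. In their real-time RT-PCR it first increased and later decreased, and they grouped it with miRNAs downregulated in the cold. At 4 h it was not among the miRNAs whose RT-PCR trend they gave as opposite to sequencing. They also reported a negative correlation between its level and that of GSVIVT01022169001.

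Of the 59 members, 20 were listed in both libraries, 23 in NCT only and 16 in CT only. This was 33.9% (95% Wilson interval 23.1 to 46.6) listed in both, beside 33.6% (25.7 to 42.6) of the U-starting entries and 34.4% of all 299 entries. By first base, 6 of 25 A-starting, 12 of 31 C-starting and 2 of 3 G-starting members were listed in both. The interval for A (24.0%, 11.5 to 43.4) overlaps that for C (38.7%, 23.7 to 56.2). These intervals treat entries as independent draws, so they measure no spread between libraries and their overlap is descriptive. NCT-only members outnumbered CT-only ones for A (11 against 8) and for C (11 against 8). The U-starting entries had 38 and 39 and all entries of the table had 107 and 89, and these differences were not tested.

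**Figure D2:**
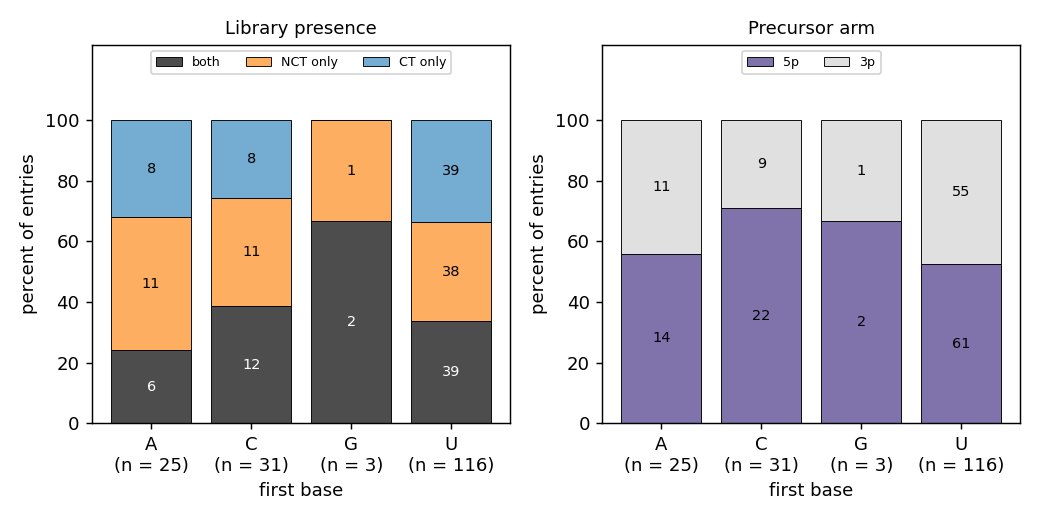
Library presence (left) and precursor arm (right) by first base, as percent of the entries of each first base, for the 59 members (A, C, G) and the 116 U-starting entries, with the number of entries written in each segment. Segments for A hold 6 in both libraries, 11 in NCT only and 8 in CT only, and for C the 5p arm holds 22 of 31.

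Listing in both libraries rose with the read count. No count under 5 was listed, so entries in the lowest range could be listed in both only with 5 to 9 reads in each library. The share in that range was thus limited by the listing itself. Of the 21 members whose higher count was 5 to 9 reads, 0 were listed in both, which allows a share of up to 15.5% by the Wilson interval. The share was 8 of 20 at 10 to 19 reads, 3 of 6 at 20 to 49 reads and 9 of 12 at 50 or more reads. The U-starting entries gave 2 of 46, 9 of 28, 13 of 22 and 15 of 20 in the same ranges, and the intervals overlap in each of them. The part of low counts in listing by library was not tested further.

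**Figure D3:**
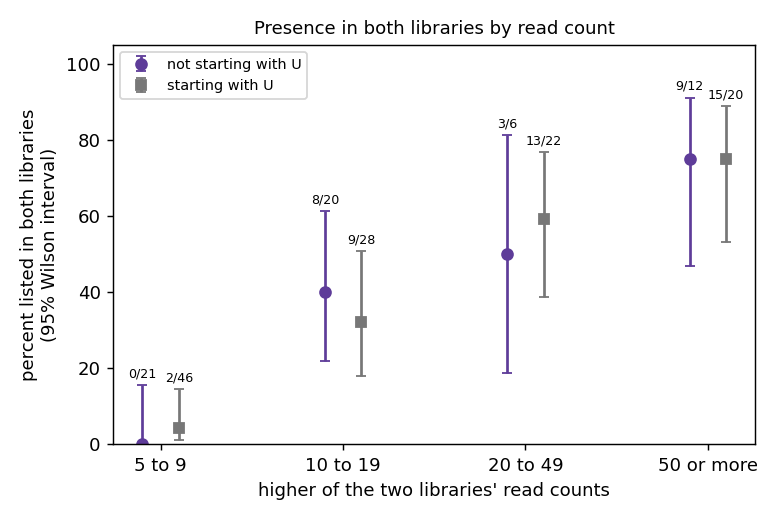
Percent of entries listed in both libraries (y axis, with 95% Wilson intervals) by the higher of the 2 read counts (x axis), for the 59 members and the 116 U-starting entries, with counts above each interval. The members go from 0 of 21 at 5 to 9 reads to 9 of 12 at 50 or more reads.

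Of the 39 members listed in 1 library, 21 passed the limits on fold and p when the level limit was left out. A count of 0 was set to 0.01 TPM, against which any listed count passes the fold limit. Only p could thus decide, and it followed the number of reads. With 4 reads put in the other library, 7 of them passed, in a comparison added after the data were seen. These were 4 listed in NCT only (novel_mir_54, novel_mir_84, novel_mir_96 and novel_mir_195) and 3 listed in CT only (novel_mir_276, novel_mir_294 and novel_mir_240). Of all 196 entries listed in 1 library, 44.9% passed before and 19.9% after this change. Of the 7 members, 6 start with A and 1 with C, while the 39 members listed in 1 library comprised 19 with A, 19 with C and 1 with G. Novel_mir_195, with 19 reads, was named after its values were seen.

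Novel_mir_294 had 80 reads in CT, or 3.09 TPM (2.48 to 3.84), and was at least 16.5-fold higher there. It lies between genes on chromosome 9 (6168396 to 6168416, antisense strand).
novel_mir_294: aGATTGGGgcatgtgggcgat
Its seed is that of vvi-miR3632*, but the sequences had no match within 2 mismatches over 18 nt. Novel_mir_54 had 56 reads in NCT, or 2.62 TPM (2.02 to 3.40), at least 17.0-fold more than in CT. It lies in a coding sequence on chromosome 14 (7970117 to 7970137, sense strand).

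Novel_mir_96 was the only member within 2 mismatches of a known grapevine miRNA, vvi-miR3635. It differs from it by G3A and G15A over 21 nt, counted from the 5′ end of the known sequence.
novel_mir_96: aGCATGTGtgggacataatag
vvi-miR3635: aaggcatgtgtggggcataataga
Novel_mir_96 had 37 reads in NCT, was not listed in CT and was at least 11.2-fold lower there. Among the C-starting members, novel_mir_84 had the most reads of those listed in NCT only, with 41 reads on the 3p arm, at least 12.4-fold more than in CT. Novel_mir_41 followed with 13 reads. Of the C-starting members listed in CT only, novel_mir_228 had 16 and novel_mir_279 had 13 reads.

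Novel_mir_240 carries the 3p strand of a miR169-like hairpin. The miR169 family is known for targeting subunits of the NF-Y transcription factor in plants. The sequence was found in the precursor of novel_mir_68, a 20 nt entry that lacks only the last base, between genes on chromosome 14 (25082500 to 25082615, antisense strand).
novel_mir_240: aGGCAGTCaccttggctaact
novel_mir_68: aGGCAGTCaccttggctaac
5p strand of this hairpin: agccaaggatgacttgcctgc
The 5p strand matched vvi-miR169e over 20 nt with 0 mismatches. Novel_mir_68 was listed in NCT only with 78 reads and novel_mir_240 in CT only with 31 reads, so the libraries list different lengths of the same strand. When summed, 78 reads in NCT stood against 31 in CT, a log2 of -1.61 (exact interval -2.26 to -0.99, Fisher's exact test, p = 3.5e-08). The sign is thus opposite to that of novel_mir_240 alone, and whether each length had unlisted reads in the other library was not tested.

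A further C-starting member, novel_mir_25, resembles the 3p strand of a hairpin on chromosome 1. The 5p strand of this hairpin is listed as an entry in NCT only and as another, shifted entry in CT only. As a member, novel_mir_25 was named after its values were seen.
novel_mir_25: cTCAAGAAagctgtgggaaaa
3p strand of the chromosome 1 hairpin: ttcaagaaagccgtgggaaaa
It differs by C1T and T12C, counted from the 5′ end of novel_mir_25, from that strand. Novel_mir_25 was listed in NCT only with 12 reads, also from the 3p arm.

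Among the 20 members listed in both libraries, the median log2 (CT/NCT) was -0.50, beside -0.41 for all 103 such entries and -0.54 for the U-starting ones. By first base, it was -0.56 over 6 A-starting and -0.19 over 12 C-starting members, and the C-starting median changed sign to 0.22 when scaled by the median of ratios. With clean reads 17 of the 20 lay below 0, and with the median of ratios 11 of the 20. With clean reads, those below -1 were novel_mir_106, novel_mir_190 and novel_mir_110, and none lay above 1, whereas with the median of ratios only novel_mir_110 (-1.34) lay below -1 and novel_mir_142 (1.27) lay above 1. For clean reads, the background was 17.5% below -1 and 3.88% above 1 of all entries listed in both libraries. The counting interval lay below 0 for 6 of the 20, near the background of 30.1%, and above 0 for 0 of the 20, beside 7.77%.

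**Figure D4:**
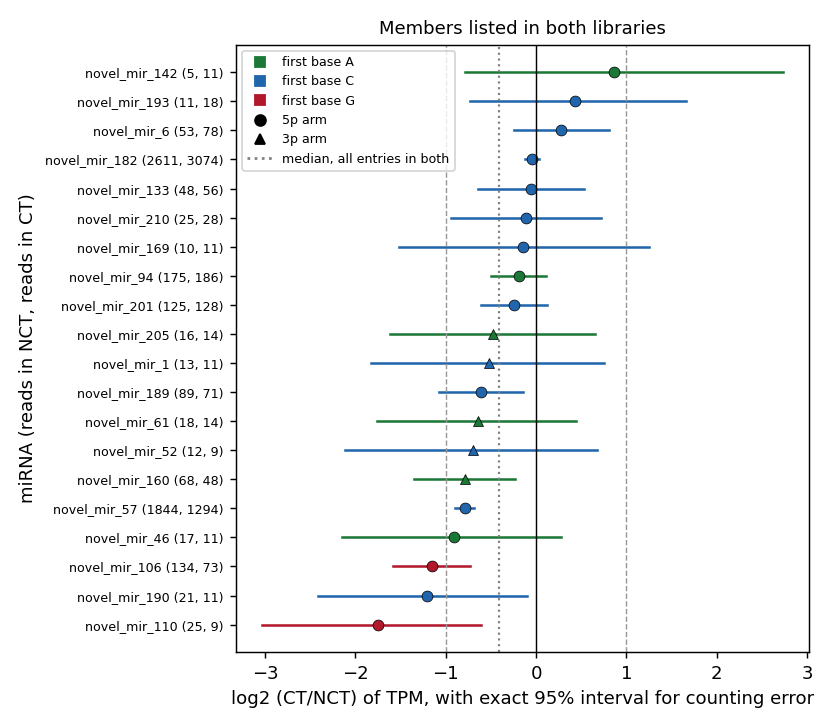
log2 (CT/NCT) of TPM (x axis) for the 20 members listed in both libraries, each with its exact 95% interval for counting error, coloured by first base and shaped by arm, with read counts in brackets. The dotted line is the median of -0.41 of all 103 entries listed in both, and both G-starting members lie below -1.

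The A-starting members of this set had few reads. Novel_mir_94 had 175 reads in NCT and 186 in CT (log2 -0.19, exact interval -0.50 to 0.11, and 0.22 with the median of ratios) and lies between genes on chromosome 18 (21213321 to 21213341, sense strand). Novel_mir_160, the most abundant member on the 3p arm, had 68 and 48 reads (log2 -0.78, exact interval -1.35 to -0.23) and lies between genes on chromosome 6 (2805555 to 2805575, sense strand). The other 4 had 5 to 18 reads in each library. Their intervals all include 0.

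Of the C-starting members, novel_mir_201 on the unplaced chromosome Un had 125 and 128 reads, with a log2 of -0.25 (exact interval -0.61 to 0.12) that turned to 0.17 with the median of ratios. With clean reads, novel_mir_6 was among the few members with a higher level in CT. It had 53 reads in NCT and 78 in CT (log2 0.28, exact interval -0.24 to 0.81, and 0.69 with the median of ratios). It lies in a 5′ UTR on chromosome 10 (2595425 to 2595445, antisense strand). Novel_mir_133 had 48 and 56 reads (log2 -0.06, exact interval -0.64 to 0.53, and 0.35 with the median of ratios) and lies between genes on chromosome 3 (6931891 to 6931911, antisense strand). With clean reads, all 3 intervals include 0.

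The members came more often from the 5p than from the 3p arm, with 38 and 21, and this was 64.4% on 5p beside 52.6% of the U-starting entries and 56.5% of all entries. By first base, 14 of 25 A-starting, 22 of 31 C-starting and 2 of 3 G-starting members were on 5p. The 20 members listed in both libraries had the same arm in both. The 5p members took 95.8% of the members' reads in NCT and 96.8% in CT, largely through novel_mir_182 and novel_mir_57. Without these, 948 of 1184 reads in NCT and 1176 of 1357 reads in CT were on 5p. Listing in both libraries was 15 of 38 on 5p and 5 of 21 on 3p, while the U-starting entries had 16 of 61 on 5p and 23 of 55 on 3p. This difference in order was not tested.

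A precursor sequence was given for 12 of the members, which are those with 50 or more reads in at least 1 library. The precursors were 73 to 319 nt long (median 155.5 nt) and folded at -16.9 to -96.4 kcal/mol (median -44.6 kcal/mol). In the predicted folds, 16 to 20 nt of the mature sequence were paired (median 17 nt), and the first base was paired in 11 of the 12, all except novel_mir_189. They lie between genes for 8 of the 12 and on the sense strand for 8 of the 12.

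The precursor numbers followed the order of chromosomes, strands and positions for all 49 single-precursor entries of known place in NCT and all 44 in CT. This order placed 18 further members on a chromosome, while 29 could not be placed. The 30 placed members fell on 14 chromosomes or unplaced sequences, with 6 on chromosome 9, 5 on chromosome 18 and 4 on chromosome 1.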

How the data were processed

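The table deposited by the authors holds raw read counts of each mature sequence in 1 NCT and 1 CT library, and text naming the number, arm and count of each precursor. Per the methods, reads were trimmed, mapped without mismatch to the PN40024 genome (12X) with SOAP2, freed of other non-coding RNAs and known miRNA precursors, and searched for hairpins with Mireap. The processing notes of the labels name STAR instead. Precursor numbers differ between the libraries, and separate prediction in each library was inferred from this.

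TPM was computed with the clean reads given for each library, since the table holds only part of them. For log2 ratios, 0.01 TPM replaced a count of 0, and bounds on folds used 4 reads, a floor chosen after the data were seen. Fisher's exact test (two-sided) was run over all 299 entries, at the limits of the study. Single libraries give no estimate of dispersion, so the quasi-likelihood test of edgeR was left out. Intervals of ratios are exact for a pair of Poisson counts at 95%, and those of TPM are Wilson intervals at 95%. Both cover counting error only, and they treat reads as independent, as does Fisher's exact test. PCR reads are not independent molecules, so even the counting error may be understated. Wilson intervals for shares of entries treat entries as independent draws, and cover neither counting error nor a spread between libraries.

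Supplementary tables of the study gave precursor sequences, places, annotation, known miRNAs and target sites, joined by the whole mature sequence (65 predicted and 162 known miRNAs compared). Names are those of the deposited table, which differ from those of the article. Precursor folds at 37°C came from RNAfold (ViennaRNA 2.7.2). Sequences were compared by shared runs of at least 16 nt and by ungapped alignment over at least 18 nt. A member without coordinates was placed on a chromosome where its nearest placed neighbours by precursor number, before and after, both lie on that chromosome.

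The members, lists and tests were chosen with earlier results of these data known. The named members were those past the limits, for each first base the 3 with the highest summed TPM and the 2 with most reads listed in NCT only and in CT only, the 3 highest and 3 lowest log2 ratios among those listed in both with 20 or more reads in a library, those within 2 mismatches of a known miRNA over 18 nt, those sharing a run of 16 nt with another entry, and those sharing a seed with a known miRNA or another member (at most the 4 groups with most reads). This gave 21 names. Alternatives were other library totals, TPM limits and p-value rules, sums of similar entries, minimum counts and the exact test of edgeR at an assumed coefficient of variation of 0.4. Python 3.11.15, scipy 1.17.1, R 4.3.3 and edgeR 4.0.16 were used. Known miRNA reads, real-time RT-PCR and target expression were not analysed here.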

Additional observations from a re-analysis of the deposited data

How the results depend on the processing

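The count of 1 member higher and 0 lower in CT stayed the same with other library totals, an adjusted p-value, a log2 limit of 1.5, a floor of 3 reads and edgeR's exact test with an assumed coefficient of variation. Only 3 members passed 10 TPM, of which novel_mir_182 and novel_mir_57 stayed short of the log2 limit with every library total. These settings thus had little room to change the count. The count became 7 higher and 16 lower without the TPM limit, and 3 higher and 5 lower at 1 TPM. It became 0 higher when similar entries were summed. With the left-out names included it became 3 higher, an alternative added after the data were seen. Of the 21 members listed in 1 library and past the limits on fold and p, 7 remained with 4 reads in the other library.

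The median log2 of the members listed in both moved from -0.50 to -0.086 with the median of ratios and to -0.083 with TMM. For C-starting members it moved to 0.22 with both and to 0.015 with the sum of the listed reads. The share listed in both rose to 52.6% at 10 or more and 66.7% at 20 or more reads, to 57.1% and 88.9% for C-starting members (A-starting ones went to 42.9% and then 28.6%, 2 of 7), and to 52.9% and 66.7% for U-starting entries. Without novel_mir_182, C-starting members held 78.8% of the members' reads in NCT and 67.5% in CT. For each of these the cause was not tested, apart from fewer entries at higher minimum counts. No paired analysis was possible because NCT and CT are single libraries. Of the 59 members, 41 had fewer than 20 reads in both libraries, which leaves wide counting intervals.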
